A study of Mus musculus with 8 samples.

Results

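The immunoglobulin variable and constant segments of mouse lung stroma were taken as the rows of the authors' deposited table whose symbol starts with Ighv, Igkv, Iglv, Ighg, Igkc or Iglc, or is Ighm, Ighd, Igha or Ighe, and whose deposited values summed to more than 0 over 8 libraries. All 216 rows with such a symbol met this rule, out of 30127 rows in that table. They comprised 108 heavy chain variable segments (Ighv), 93 kappa variable segments (Igkv), 3 lambda variable segments (Iglv), 8 heavy chain constant genes, 1 kappa constant gene (Igkc) and 3 lambda constant genes (Iglc). The count table held 145 further symbols of the same pattern, all at 0 in every library. Just inside the rule lay Igkv4-81 and Ighv6-4, each with a sum of 1. The members were chosen by the same deposited values that are described below, because single segments had values in 1 group and none in the other. Hence presence and level by group are given as a description, with no inference drawn from them.

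The libraries came from reporter-positive cells of adult mouse lung, in 2 groups of 4 mice. The SmoM2 group had the genotype Gli2creERT2-tdt:R26RYFP/SmoM2 and received tamoxifen into the peritoneum at 200 mg/kg per day for 5 days. The control group had the genotype Gli2creERT2-tdt:R26RYFP, and its dosing is not given in the sources used here. Both groups thus carried the tamoxifen-inducible Cre at Gli2 and the Cre-dependent yellow fluorescent protein, and the SmoM2 group also carried SmoM2, a constitutively active form of the Hedgehog transducer Smoothened. Recombination is limited to cells that express Gli2, and live YFP+ single cells of the whole digested lung were sorted on endogenous fluorescence, with no antibody against blood cells named for the sort. The titles of the samples name 8 animals. Column names of the count table give a group with a running number, 1 to 4, and no animal, so this number names the library. Gli1, a gene that Hedgehog signalling induces, stood at 122.0, 116.5, 89.7 and 77.0 CPM in the SmoM2-labelled libraries and 82.8, 136.5, 115.3 and 62.7 CPM in the control libraries. CPM is the count per M of the library's TMM-scaled total. The 2 groups overlapped for Gli1, so the SmoM2 libraries are called by their label throughout.

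The deposited counts are in units, and a sequenced fragment was taken as 5 of them because 5 was the most frequent value above 0 in every library. The factor is an assumption, since 490 to 584 genes per library had a value of 4 beside 672 to 771 genes with a value of 5. Fragment numbers, the 15 units taken as 3 fragments, ratios to those 3 fragments and intervals below all rest on it. The libraries held 91.6 to 111.6 M units, about 18.3 to 22.3 M fragments, with 23581 to 24801 genes above 0. A list of 10 lung stroma genes, Pdgfra and Col1a1 among them, summed to 47478 to 72684 CPM in the SmoM2-labelled libraries and 45373 to 63812 CPM in the control libraries, so the labelled cell type was well represented in all 8. A list of 15 B cell genes summed to 13.3 to 40.4 CPM in the SmoM2-labelled libraries and 22.3 to 63.4 CPM in the control libraries. SmoM2 library 1 stood apart from the rest of its group in the number of variable segments it held, and the summed level, the counts of segments in 1 group alone, the shared segments and the relations are given with and without it.

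Antibodies are made by cells of the B lineage. Each B cell joins a variable segment to short diversity (heavy chain only) and joining segments, and the joined exon is spliced to a constant gene, which sets the class: IgM and IgD on naive cells, and IgG, IgE or IgA after class switching. A clone keeps its rearranged variable segments, but unrelated clones can use the same segment. The set of segments in a library thus shows segment use and does not identify clones. Plasma cells, which secrete antibody, hold far more antibody RNA per cell than resting B cells. In lung, IgA is the main antibody secreted onto the airway surface.

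The members with an adjusted p under 0.05 in the authors' deposited table were Ighv14-2, Ighv1-58 and Igkv16-104, and their variable exons are shown because the results below turn on how far reads could be told from those of other segments. Sequences are from the GENCODE M21 annotation of the mm10 (GRCm38) build, 5′ to 3′ on the coding strand, and at most 300 bases are printed: the 5 bases at the 5′ end of the Ighv exons and the 5 at the 3′ end of the lambda exons are left out. Ighv14-2 lies at chr12:113994469-113994768 on the minus strand. Its nearest segment, Ighv14-1, lies at chr12:113931953-113932252 on the minus strand, and the 9 of 305 bases that differ between them are in capitals.
Ighv14-2: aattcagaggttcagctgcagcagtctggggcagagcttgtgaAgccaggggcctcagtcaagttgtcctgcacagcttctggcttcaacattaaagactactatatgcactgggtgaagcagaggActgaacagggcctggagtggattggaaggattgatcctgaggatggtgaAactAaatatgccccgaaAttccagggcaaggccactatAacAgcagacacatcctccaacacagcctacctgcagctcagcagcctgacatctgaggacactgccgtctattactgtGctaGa
Ighv14-1: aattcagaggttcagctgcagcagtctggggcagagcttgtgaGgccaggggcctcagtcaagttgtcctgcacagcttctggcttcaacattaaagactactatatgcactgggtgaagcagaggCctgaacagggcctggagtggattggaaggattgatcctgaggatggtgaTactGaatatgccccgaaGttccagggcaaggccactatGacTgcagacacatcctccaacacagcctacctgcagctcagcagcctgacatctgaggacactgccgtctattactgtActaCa
Ighv1-58 lies at chr12:115312166-115312465 on the minus strand. Its closest match, Ighv1-83, was at 0 in all libraries and differs at 33 of 305 bases.
Ighv1-58: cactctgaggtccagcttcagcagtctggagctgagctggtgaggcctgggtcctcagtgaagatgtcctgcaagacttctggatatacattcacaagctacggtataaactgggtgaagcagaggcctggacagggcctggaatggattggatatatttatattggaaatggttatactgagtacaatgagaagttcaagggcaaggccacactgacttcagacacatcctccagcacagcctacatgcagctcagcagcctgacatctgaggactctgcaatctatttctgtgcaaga
Igkv16-104 lies at chr6:68425774-68426072 on the plus strand. It has no near copy, since its closest match, Igkv11-125, which was also at 0 in all libraries, differs at 74 of 298 aligned bases.
Igkv16-104: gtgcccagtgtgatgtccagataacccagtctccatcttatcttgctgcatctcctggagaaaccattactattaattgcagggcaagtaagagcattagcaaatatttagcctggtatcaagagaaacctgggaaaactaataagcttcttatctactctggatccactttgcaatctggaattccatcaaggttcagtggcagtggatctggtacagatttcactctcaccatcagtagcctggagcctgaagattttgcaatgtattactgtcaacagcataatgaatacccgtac
The lambda segments Iglv1, at chr16:19085022-19085321 on the minus strand, and Iglv2, at chr16:19260406-19260705 on the minus strand, are shown because they are near copies with different library patterns. Capitals mark the 9 of 305 bases that differ between these 2.
Iglv1: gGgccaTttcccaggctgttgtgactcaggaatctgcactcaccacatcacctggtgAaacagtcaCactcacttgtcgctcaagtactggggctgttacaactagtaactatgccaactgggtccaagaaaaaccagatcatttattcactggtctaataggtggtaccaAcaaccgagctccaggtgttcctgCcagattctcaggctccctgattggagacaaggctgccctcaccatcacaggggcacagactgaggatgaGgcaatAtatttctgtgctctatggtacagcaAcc
Iglv2: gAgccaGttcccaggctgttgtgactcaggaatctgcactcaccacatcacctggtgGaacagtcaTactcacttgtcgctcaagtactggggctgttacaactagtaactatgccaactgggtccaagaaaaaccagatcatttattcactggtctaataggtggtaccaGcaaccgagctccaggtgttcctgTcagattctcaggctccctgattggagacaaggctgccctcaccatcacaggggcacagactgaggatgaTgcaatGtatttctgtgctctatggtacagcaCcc

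Near copies were usual among the members. Each of the 204 variable exons was set against all other annotated variable exons of its locus, and the identity to the closest had a median of 95.3%. It was at least 95% for 113 of them and at least 98% for 21, and Ighv1-62-2 and Ighv1-71 had identical exons. A stretch of 150 or more identical bases was shared with the closest match by 14 exons. How reads that match several segments were assigned is not given in the sources used here, so values of single near-identical segments are uncertain, and sums over a locus or a family are less exposed to this. The members lie in 3 loci: from Igha at 113254830 to Ighv1-86 at 116010093 on chromosome 12 for the heavy chain, from Igkv2-137 at 67555497 to Igkc at 70726966 on chromosome 6 for kappa, and from Iglc1 at 19061618 to Iglv2 at 19260859 on chromosome 16 for lambda. The annotation types 189 members as variable genes, 15 as variable pseudogenes and 12 as constant genes.

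Summed over all 216 members, immunoglobulin RNA took a small share of every library. The sum was 121.3, 352.3, 184.2 and 380.0 CPM in SmoM2 libraries 1 to 4, and 268.9, 322.2, 497.9 and 324.6 CPM in control libraries 1 to 4. The groups overlapped, with SmoM2 libraries 1 and 3 below every control library and SmoM2 libraries 2 and 4 within the control range. The mean was 259.4 ± 126.3 CPM in SmoM2-labelled and 353.4 ± 99.7 CPM in control libraries (SD, n = 4 each), and without SmoM2 library 1 the mean of that group was 305.5 CPM. As a share of all units this was 0.0118% to 0.0383% in SmoM2-labelled and 0.0274% to 0.0478% in control libraries. In bulk RNA, fewer cells of a type and less RNA per cell cannot be told apart.

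Although the sum ranged widely between libraries, its split between variable and constant parts did not. Variable segments held 24.95%, 26.5%, 24.7% and 22.4% of member units in SmoM2 libraries 1 to 4 and 23.5%, 23.4%, 25.5% and 23.6% in control libraries 1 to 4. Kappa variable segments held 0.651 to 0.737 units for each unit of Igkc in SmoM2-labelled libraries and 0.672 to 0.810 in control libraries. Heavy chain variable segments held 0.126 to 0.169 units per unit of heavy chain constant genes in SmoM2-labelled and 0.113 to 0.162 in control libraries. Variable and constant parts of a chain are exons of the same messenger RNA once a segment is joined, and the kappa and heavy chain ratios had narrower ranges than the lambda ratio, which ran from 0.474 to 0.949 Iglv units per Iglc unit in SmoM2-labelled and from 0.349 to 0.770 in control libraries. Joining segments were near the floor, with 10 of 14 above 0 and no value above 13 units, and 4 of 19 diversity segments were above 0, with no value above 1 unit.

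Among the heavy chain constant genes, Igha and Ighm together held most of the units in every library, but in different proportions. Igha, the constant gene of IgA, stood at 27.8, 125.5, 60.8 and 105.9 CPM in SmoM2 libraries 1 to 4 and 110.8, 52.2, 131.4 and 142.2 CPM in control libraries 1 to 4. Its mean was 80.0 ± 44.1 CPM in SmoM2-labelled and 109.2 ± 40.1 CPM in control libraries (SD, n = 4 each), and the groups overlapped. Ighm, the constant gene of IgM, stood at 32.5, 36.0, 24.9 and 72.3 CPM in SmoM2 libraries 1 to 4 and 24.03, 92.5, 79.7 and 9.46 CPM in control libraries 1 to 4. The highest and the lowest Ighm values were thus both in the control group.

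The class mix differed from library to library within each group. IgA made up 45.0%, 74.7%, 62.0% and 51.5% of heavy chain constant units in SmoM2 libraries 1 to 4, and 78.3%, 29.6%, 51.0% and 79.7% in control libraries 1 to 4. IgM made up 52.6%, 21.4%, 25.3% and 35.2% in SmoM2 libraries 1 to 4, and 16.98%, 52.4%, 30.9% and 5.30% in control libraries 1 to 4. By units, with no correction for length, SmoM2 library 1 and control library 2 had more IgM than IgA, and the other 6 libraries had more IgA. The order in SmoM2 library 1 depends on the length taken. The shortest annotated transcript has 1100 bases for Igha and 1493 for Ighm. The 95% Wilson interval of the IgM share, at 5 units per fragment, was 49.8% to 55.3% in SmoM2 library 1 and 4.67% to 6.02% in control library 4, so the spread between mice was far wider than counting error. Such intervals cover counting error only, since fragments amplified by PCR are not independent molecules.

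The IgG constant genes together made up 0.835%, 3.19%, 11.1% and 11.5% of heavy chain constant units in SmoM2 libraries 1 to 4 and 3.41%, 13.1%, 15.8% and 13.7% in control libraries 1 to 4. Ighg2b, a constant gene of the complement-fixing IgG class, had values in all 8 libraries, at 0.399 to 10.2 CPM in SmoM2-labelled and 4.48 to 14.1 CPM in control libraries. Ighg2c stood at 0, 3.0, 2.53 and 2.41 CPM in SmoM2 libraries 1 to 4 and 0.254, 10.9, 20.4 and 3.97 CPM in control libraries 1 to 4. Ighg1 was at 0 in SmoM2 libraries 1 and 2 and in control library 1, and reached 5.82 CPM in SmoM2-labelled and 8.33 CPM in control libraries. Ighg3 was low in 2 libraries of each group, at 0.117 and 0.158 CPM in SmoM2 libraries 1 and 3 and 0.095 and 0.034 CPM in control libraries 1 and 4, and reached 5.12 CPM in SmoM2 library 4 and 5.09 CPM in control library 2. Each IgG gene therefore had its own pattern over the mice, and none separated the groups. These genes resemble each other, with 75.1% to 86.4% identity between pairs and no shared stretch longer than 78 bases.

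Ighd, the constant gene of the IgD found on naive B cells, had 103, 102, 171 and 271 units in SmoM2 libraries 1 to 4 and 175, 771, 547 and 210 units in control libraries 1 to 4. Its edgeR log2 fold change, SmoM2 over control, was −1.45 with an SE of 0.55, and its adjusted p was 1.0 in edgeR's quasi-likelihood test with Benjamini-Hochberg adjustment over all 20162 genes tested. Ighe, the constant gene of IgE, which arms mast cells, was at 0 in SmoM2 libraries 1 and 3 and in control library 1. It had 131 units in SmoM2 library 4 and 111 and 53 units in control libraries 2 and 4, and 5 units in each of the remaining 2 libraries. IgE transcripts were thus seen at 15 units or more in 1 SmoM2-labelled and 2 control libraries.

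**Figure D1:**
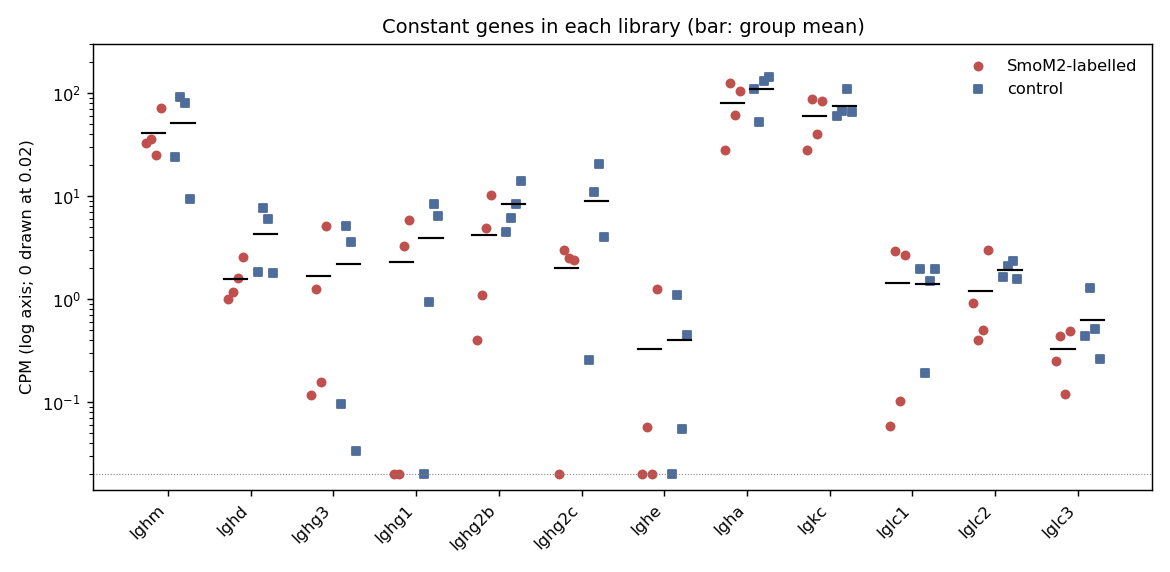
Level of each of the 12 constant genes in every library, in CPM on a log axis, with SmoM2-labelled libraries (circles) left of control libraries (squares), horizontal bars at the group means and values of 0 drawn at 0.02. The groups overlap for every gene; Igha, Igkc and Ighm lie highest, and Ighg1, Ighg2c and Ighe are at 0 in some libraries.

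Igkc, the only kappa constant gene, stood at 28.03, 87.1, 39.9 and 83.2 CPM in SmoM2 libraries 1 to 4 and 60.02, 66.7, 108.6 and 65.9 CPM in control libraries 1 to 4. The means were 59.6 ± 30.0 CPM in SmoM2-labelled and 75.3 ± 22.4 CPM in control libraries (SD, n = 4 each), with overlap. Per kilobase of annotated exon, the mean level of Igkc was 112.0 CPM in SmoM2-labelled and 141.5 CPM in control libraries. Igha came to 29.97 CPM per kilobase in SmoM2-labelled and 40.9 CPM per kilobase in control libraries, and Ighm to 21.9 CPM per kilobase in SmoM2-labelled and 27.3 CPM per kilobase in control libraries. With the shortest annotated transcript in place of all exons, Igha came to 72.7 CPM per kilobase in SmoM2-labelled and 99.3 CPM per kilobase in control libraries, still below Igkc. Igkc shares bases on the same strand with the gene model Gm30211, so reads there may have been split.

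Lambda light chains were the minor class, as is known for laboratory mice. The 3 lambda constant genes made up 4.22%, 4.16%, 1.78% and 6.90% of light chain constant units in SmoM2 libraries 1 to 4 and 6.29%, 5.04%, 3.88% and 5.43% in control libraries 1 to 4. Within the lambda locus, Iglv1 and Iglc1 were low in the same libraries. Iglv1 had 24, 305, 37 and 289 units in SmoM2 libraries 1 to 4 and 115, 45, 185 and 260 units in control libraries 1 to 4. Iglc1, a constant gene to which Iglv1 is commonly joined, had 6, 258, 11 and 283 units in SmoM2 libraries 1 to 4 and 184, 19, 138 and 233 units in control libraries 1 to 4. SmoM2 libraries 1 and 3 and control library 2 were the 3 lowest for both genes, well below the other 5, and with libraries in such separate sets no correlation is given.

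Iglv2, which was added here to complete the locus, had 79, 0, 0 and 102 units in SmoM2 libraries 1 to 4 and 0, 36, 26 and 0 units in control libraries 1 to 4. It was thus above 0 in 2 libraries of each group, among them SmoM2 library 1 and control library 2, where Iglv1 was low, and SmoM2 library 4 and control library 3, where Iglv1 was high. The exons differ at the 9 bases in capitals above. Iglv3 was at 0 in SmoM2 libraries 1 and 3 and had 9 and 124 units in SmoM2 libraries 2 and 4, against 72, 43, 82 and 85 units in control libraries 1 to 4. Iglc2 had 95, 35, 54 and 316 units in SmoM2 libraries 1 to 4 and 156, 208, 217 and 184 units in control libraries 1 to 4. Iglc3 had 13 to 52 units in SmoM2-labelled and 31 to 128 units in control libraries, highest in control library 2. Iglc2 and Iglc3 are 95.4% identical and Iglv1, Iglc1 and Iglc3 lie opposite the gene model 2010309G21Rik. The library kit is not stated to keep strand, so reads of these 3 and of that model cannot be told apart.

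The number of variable segments with a value differed widely between libraries. Of 204 variable segments, 53, 114, 107 and 115 had a value above 0 in SmoM2 libraries 1 to 4, and 92, 122, 146 and 140 in control libraries 1 to 4. The groups overlapped, with control library 1 below 3 of the SmoM2-labelled libraries. At 15 units or more, the counts were 36, 85, 65 and 91 in SmoM2 libraries 1 to 4 and 65, 82, 111 and 107 in control libraries 1 to 4. SmoM2 library 1, with the fewest segments, also had the lowest sum of member CPM. Ighv segments above 0 numbered 22, 50, 54 and 56 in SmoM2 libraries 1 to 4 and 44, 52, 72 and 72 in control libraries 1 to 4, and Igkv segments 29, 62, 52 and 56 in SmoM2 libraries and 46, 67, 71 and 66 in control libraries.

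**Figure D2:**
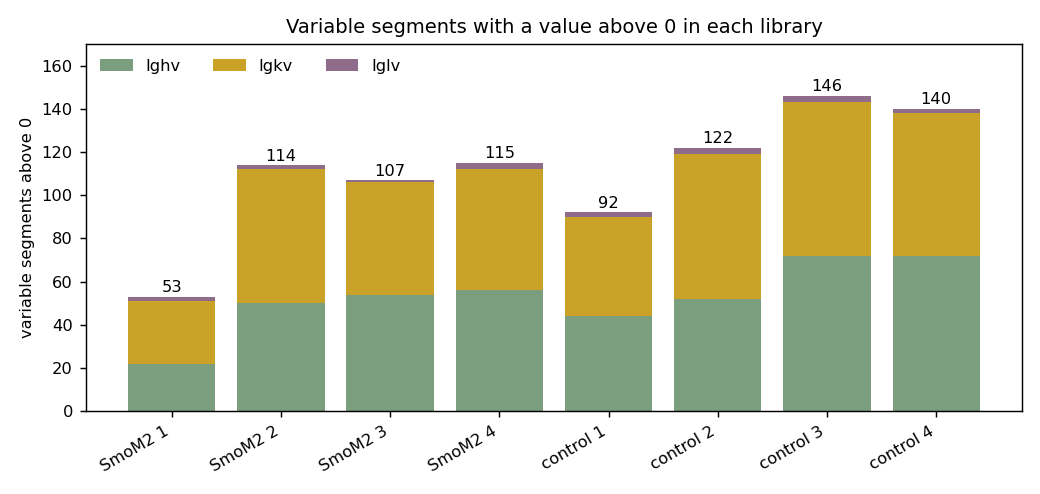
Number of variable segments with a value above 0 in each library, stacked by locus (Ighv, Igkv, Iglv), with the total above each bar; SmoM2-labelled libraries are on the left and control libraries on the right. SmoM2 library 1 has 53, and the other 7 libraries lie between 92 and 146.

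Most segments were shared by some libraries and missing from others. A value above 0 was seen in a single library for 33 segments and in all 8 libraries for 20, and the other 151 lay in between. Segments held by no other library numbered 0, 5, 4 and 3 in SmoM2 libraries 1 to 4 and 4, 3, 7 and 7 in control libraries 1 to 4. For each pair of libraries, the segments in both were set against those in either. This share averaged 41.7% over the 6 pairs within the SmoM2 group (30.1% to 51.7%), 55.1% over the 6 pairs within the control group (43.6% to 65.3%) and 47.3% over the 16 pairs between groups (31.6% to 60.1%). Without SmoM2 library 1 the average was 49.3% over the remaining 3 pairs within the SmoM2 group and 52.1% over the remaining 12 pairs between groups. The share depends on how many segments each library held.

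Segments were used unevenly within a library, and different segments led in different mice. The effective number of Ighv segments is 1 divided by the sum of their squared shares (the inverse Simpson index). It was 8.37, 25.7, 23.7 and 26.5 in SmoM2 libraries 1 to 4 and 20.3, 25.1, 33.8 and 36.1 in control libraries 1 to 4. For Igkv it was 12.8, 26.6, 21.5 and 30.3 in SmoM2 libraries 1 to 4 and 23.5, 24.2, 29.9 and 30.1 in control libraries 1 to 4. In SmoM2 library 1, Ighv1-82 alone took 26.4% of the Ighv units (95% Wilson interval 21.2% to 32.9%), and Igkv12-44 took 17.5% of the Igkv units (14.1% to 21.6%). No segment took more than 12.0% of the Ighv units or 10.5% of the Igkv units in any other library.

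The segment with the most Ighv units was Ighv3-6 in SmoM2 libraries 2, 3 and 4 and in control library 4, Ighv2-9 in control library 1, Ighv1-81 in control library 2 and Ighv1-26 in control library 3. Ighv3-6 was above 0 in all 8 libraries, with 107, 188, 198 and 328 units in SmoM2 libraries 1 to 4 and 126, 63, 193 and 288 units in control libraries 1 to 4. Ighv1-82 had 283, 93, 10 and 68 units in SmoM2 libraries 1 to 4 and 28, 14, 139 and 20 units in control libraries 1 to 4. Ighv2-9 had 0, 86, 91 and 72 units in SmoM2 libraries 1 to 4 and 217, 80, 126 and 57 units in control libraries 1 to 4. The groups overlapped for each of these 3. Ighv1-64 had 0 to 111 units in SmoM2-labelled and 24 to 178 in control libraries, and Ighv2-9-1 had 0 to 46 in SmoM2-labelled and 0 to 242 in control libraries. Ighv1-14, which the annotation types as a variable pseudogene, had 9 to 77 units in SmoM2-labelled and 20 to 153 in control libraries.

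Among kappa segments, Igkv1-117 had the highest sum, with 103, 42, 181 and 287 units in SmoM2 libraries 1 to 4 and 83, 571, 457 and 211 units in control libraries 1 to 4. Igkv8-30 had 8, 523, 122 and 177 units in SmoM2 libraries 1 to 4 and 321, 177, 454 and 62 units in control libraries 1 to 4. Igkv12-44 had 340, 94, 34 and 329 units in SmoM2 libraries 1 to 4 and 0, 26, 440 and 212 units in control libraries 1 to 4. A segment could thus be the leading one in a mouse and at or near 0 in another of either group. Igkv10-96 ranged from 2 to 232 units in SmoM2-labelled and from 57 to 647 in control libraries, Igkv1-110 from 62 to 312 in SmoM2-labelled and from 102 to 418 in control libraries, and Igkv3-2 from 87 to 346 in SmoM2-labelled and from 148 to 390 in control libraries. Igkv12-46, which led in SmoM2 library 4 with 350 units, was at 0 in control library 1.

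**Figure D3:**
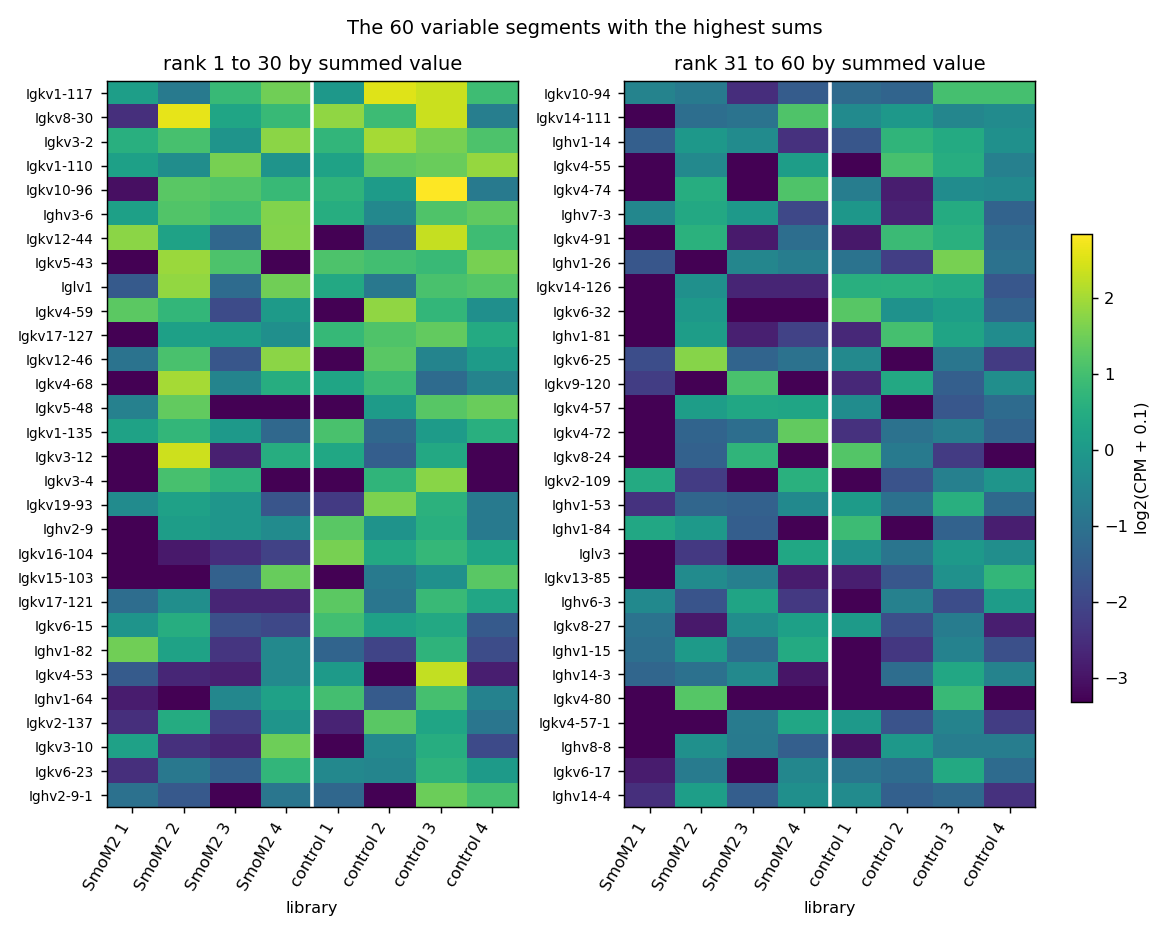
Level of the 60 variable segments with the highest sums, as log2(CPM + 0.1), in SmoM2-labelled libraries (left of the white line) and control libraries (right of it). High and low cells change from mouse to mouse within both groups; Igkv16-104 is dark in all 4 SmoM2-labelled libraries, and Igkv12-44 is bright in SmoM2 libraries 1 and 4 and dark in control library 1.

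Values were also summed over families, which gathers near copies. The Ighv1 family, with 57 of the 108 Ighv segments, held 48.8% ± 7.44 of the Ighv units in SmoM2-labelled and 48.6% ± 2.05 in control libraries (SD, n = 4 each). Ighv3 held 14.7% ± 5.98 in SmoM2-labelled and 7.58% ± 2.96 in control libraries, with ranges that overlapped. Ighv2 held 3.74% to 7.79% in SmoM2-labelled and 9.64% to 16.4% in control libraries, so its ranges did not overlap. Nor did those of Igkv17, with 1.47% to 3.62% of Igkv units in SmoM2-labelled and 4.73% to 9.86% in control libraries, or of Igkv16, whose single segment is Igkv16-104. These 3 of the 30 families were named after their values were seen. Igkv16 and Igkv17, the latter with 2 segments, each hold a segment whose own values did not overlap, so they are not separate findings. Of the 20162 genes tested, 1.42% were lower and 1.02% higher in the SmoM2 group without overlap. That share is for single genes, and none was computed for family shares. Igkv4, with 28 of the 93 Igkv segments, held 17.8% ± 5.91 of the Igkv units in SmoM2-labelled and 14.7% ± 4.49 in control libraries. Igkv12 held 6.40% to 22.9% in SmoM2-labelled and 0.157% to 7.39% in control libraries. No test was made among these families.

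Values in 1 group alone were the reason for the choice of these genes. Of 216 members, 16 (7.41%) were above 0 in SmoM2-labelled libraries alone and 33 (15.3%) in control libraries alone, against 6.09% in SmoM2-labelled libraries alone and 6.32% in control libraries alone of the 30158 genes with any value. All 49 were variable segments. Of the 30158 genes, 19658 were above 0 in all 8 libraries, against 29 of the 216 members, so the comparison is not matched for level. Of the 16, 12 were seen in 1 SmoM2-labelled library and 4 in 2 of them, with sums of at most 98 units. Of the 33, 21 were seen in 1 control library, 10 in 2 and 2 in all 4, with a median sum of 5 units for those seen once. Most of these segments therefore rest on a few fragments of a single mouse. A value of at least 15 units was reached in the SmoM2 group alone by 15 members and in the control group alone by 27, of 173 members that reached it. These were 8.67% for the SmoM2 group alone and 15.6% for the control group alone, against 4.33% for the SmoM2 group alone and 4.14% for the control group alone of the 22143 genes that reached it. Here the other group could hold values under 15 units, as for Ighv1-52, with 3 and 14 units in SmoM2 libraries 3 and 4. The segments are therefore not the same set as those above 0 in 1 group alone. Without SmoM2 library 1 the counts of members above 0 in 1 group alone were 16 for the SmoM2 group and 35 for the control group. Of 118 T cell receptor variable segments with any value, 28.8% were above 0 in the SmoM2 group alone and 18.6% in the control group alone. At 15 units or more, the shares were 27.8% for the SmoM2 group alone and 8.33% for the control group alone, of the 36 that reached it.

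The 2 segments above 0 in all 4 control libraries and in no SmoM2-labelled library were Ighv14-2 and Ighv1-58, against 16 such genes (0.0531%) among all 30158. No member was above 0 in all 4 SmoM2-labelled libraries and in no control library, against 18 such genes (0.0597%). Ighv14-2 had 0 units in each SmoM2-labelled library and 82, 30, 124 and 94 units in control libraries 1 to 4. A count of 0 over the whole SmoM2 group allows about 3 fragments, and the pooled control level of Ighv14-2 was 21.9 times that floor. Pooling the 4 libraries of a group leaves out the spread between mice. Ighv1-58 had 0 units in each SmoM2-labelled library and 14, 20, 32 and 100 units in control libraries 1 to 4, and its pooled control level was 11.0 times the same floor. Its lowest control value is just under 3 fragments.

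The other 3 members of the Ighv14 family, named for comparison after their values were seen, differed among themselves. Ighv14-3 and Ighv14-4 had values in both groups, and Ighv14-1 in control libraries alone. Ighv14-3 had 32, 34, 70 and 3 units in SmoM2 libraries 1 to 4 and 0, 36, 109 and 68 units in control libraries 1 to 4. Ighv14-4 had 8, 87, 28 and 78 units in SmoM2 libraries 1 to 4 and 65, 27, 30 and 10 units in control libraries 1 to 4. Ighv14-1, the near copy of Ighv14-2 shown above, was at 0 in the 4 SmoM2-labelled libraries and in control libraries 1 and 2, and had 55 and 5 units in control libraries 3 and 4. The longest identical stretch between Ighv14-2 and Ighv14-1 is 82 bases, so part of their reads could match both.

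Igkv16-104 had 0, 3, 8 and 14 units in SmoM2 libraries 1 to 4 and 272, 123, 149 and 135 units in control libraries 1 to 4. The groups did not overlap, and every SmoM2-labelled value was under 3 fragments. Its edgeR log2 fold change was −4.79 with an SE of 0.82, in all 4 SmoM2-labelled libraries against all 4 control libraries. The longest run of bases that its exon shares with the closest match in its locus is 23.

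**Figure D4:**
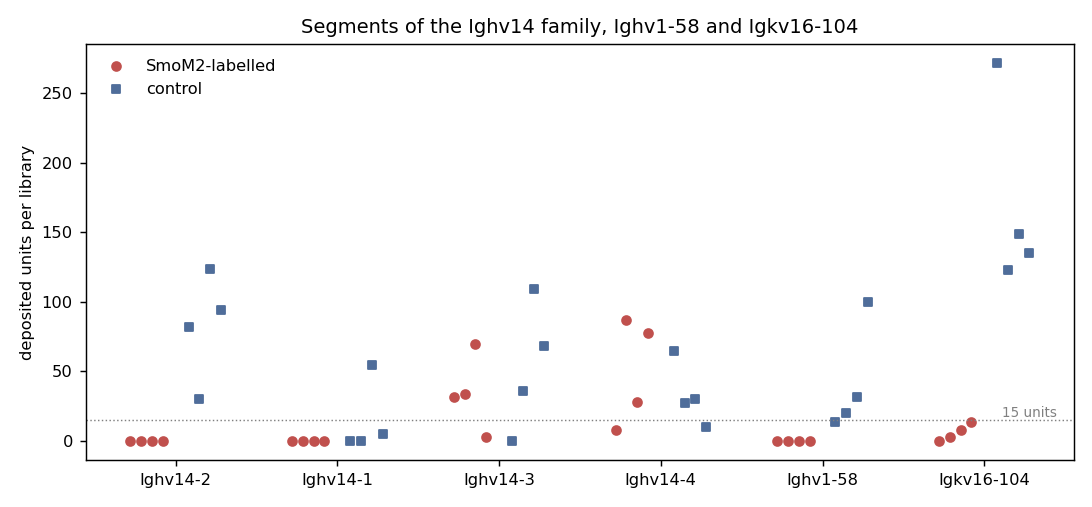
Deposited units in each library for the 4 segments of the Ighv14 family, Ighv1-58 and Igkv16-104, with SmoM2-labelled libraries (circles) left of control libraries (squares) and a dotted line at 15 units, about 3 fragments. Ighv14-2 and Ighv1-58 are at 0 in all SmoM2-labelled libraries, Igkv16-104 is at most 14 units there, and Ighv14-3 and Ighv14-4 overlap between the groups.

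Whether these 3 segments counted as changed depended on the test. They were named because the authors' table called them, and the other tests used the same counts, so no call below is separate support. In the authors' deposited table Ighv14-2 had means of 0 in the SmoM2 group and 82.8 in the control group, with an adjusted p of 6.1e-08. In the authors' deposited table Igkv16-104 had means of 6.06 in the SmoM2 group and 171.5 in the control group, with an adjusted p of 1.25e-05, and Ighv1-58 had means of 0 in the SmoM2 group and 38.6 in the control group, with an adjusted p of 0.0496. These were 3 of the 15 genes (0.0498%) that passed 0.05 in the authors' deposited table of 30127, and 3 of the 6 that were lower in the SmoM2 group (0.0199%). edgeR's quasi-likelihood test called none of the 20162 genes it tested (0.0%), with 756 at an unadjusted p under 0.05 (3.75%). Its adjusted p was 0.231 for Ighv14-2, 0.468 for Igkv16-104 and 0.642 for Ighv1-58. DESeq2 called 69 of 24185 genes (0.285%), among them these 3 with adjusted p of 1.26e-09, 5.68e-09 and 1.56e-05 for Ighv14-2, Igkv16-104 and Ighv1-58, and also Igkv8-28 with 0.0498, which was named after its values were seen. All 4 were lower in the SmoM2 group, as were 37 of the DESeq2 calls (0.153% of genes).

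Of the 216 members, 112 passed the filter on low counts for the edgeR fit, 101 of them variable segments. Of these 112, 35 had a positive and 77 a negative log2 fold change, with a median of −0.56, against 9872 positive and 10290 negative with a median of −0.00 over all genes tested. None was called, and the 8 with an unadjusted p under 0.05 were all lower in the SmoM2 group. DESeq2 had 18 of 216 members at an unadjusted p under 0.05, against 4.11% of the 30032 genes with a p. The ranges of the groups did not overlap for 7 members, all lower in SmoM2-labelled libraries, against 286 genes (1.42%) lower and 206 (1.02%) higher without overlap among all genes tested. These 7 were Ighv14-2, Ighv1-58, Igkv16-104, Ighv1-52, Ighv1-22, Igkv17-127 and Igkv8-28, the last 4 named after their values were seen. Since segments seen in 1 group alone were the reason for the choice, and a segment that passed the filter through 1 group had to differ, no inference is drawn from these counts.

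Of the 4 named late, Igkv17-127 had the highest values, with 0, 91, 106 and 78 units in SmoM2 libraries 1 to 4 and 155, 212, 225 and 148 units in control libraries 1 to 4. Its near copy Igkv17-121, 97.99% identical, had 37, 63, 6 and 6 units in SmoM2 libraries 1 to 4 and 221, 44, 156 and 136 units in control libraries 1 to 4, so the values of this pair overlapped for one and not for the other. Ighv1-52 had 0, 0, 3 and 14 units in SmoM2 libraries 1 to 4 and 53, 30, 65 and 25 units in control libraries 1 to 4. Ighv1-22 had 0, 0, 4 and 13 units in SmoM2 libraries 1 to 4 and 25, 78, 30 and 35 units in control libraries 1 to 4. Igkv8-28 had 0, 4, 4 and 0 units in SmoM2 libraries 1 to 4 and 18, 16, 81 and 27 units in control libraries 1 to 4.

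Genes of the B cell list had lower mean levels in the SmoM2-labelled libraries, and none passed the test. Of 15 B cell genes all 15 were tested, all had a negative log2 fold change with a median of −0.80, and edgeR called none of them. Over all genes tested, 9872 were positive and 10290 negative. A shared sign was also seen in a list of 10 myeloid genes, all 10 positive with a median of 0.64, and 9 of 10 T cell genes were positive. Genes of 1 list can vary together over libraries, so a shared sign does not count as separate results. Cd79a, a signalling chain of the B cell receptor, had 76, 220, 199 and 393 units in SmoM2 libraries 1 to 4 and 197, 712, 576 and 313 units in control libraries 1 to 4. The summed B cell list stood at 13.3, 27.3, 20.3 and 40.4 CPM in SmoM2 libraries 1 to 4 and 23.9, 63.4, 48.3 and 22.3 CPM in control libraries 1 to 4. The groups overlapped, and none of the 15 genes was at 0 in all libraries. The part of B cell number in the member values was not tested.

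Genes that mark antibody-secreting cells had differences of both signs. Of 12 plasma cell genes, 11 were tested, with 5 positive and 6 negative log2 fold changes, a median of −0.06 and none called by edgeR. Jchain, which links IgA and IgM units into polymers, stood at 10.9, 35.9, 18.3 and 30.7 CPM in SmoM2 libraries 1 to 4 and 26.5, 21.1, 43.0 and 11.9 CPM in control libraries 1 to 4. Tnfrsf17, the survival receptor of plasma cells, was at or under 0.13 CPM in every library. Xbp1, which drives the secretory programme, and Txndc5 held most of the list's sum, at 258.3 to 370.0 CPM in SmoM2-labelled and 256.3 to 318.1 CPM in control libraries for Xbp1. Both are also expressed by other secretory cells, collagen-producing stroma included.

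Relations between a constant gene and a B lineage gene outside the members were computed for 4 pairs over the 8 libraries, on log2(CPM + 0.1), with exact two-sided permutation tests and Benjamini-Hochberg adjustment over the 4. Igkc varied with Jchain, with Pearson's r of 0.80 (exact permutation p = 0.0158, adjusted 0.0316) and Spearman's rho of 0.88 (p = 0.00724, adjusted 0.029). Igkc varied with Cd79a with r of 0.81 (exact permutation p = 0.0147, adjusted 0.0316) and rho of 0.76 (p = 0.0368, adjusted 0.0735). Ighm with Cd79a gave r of 0.58 (exact permutation p = 0.128, adjusted 0.134) and rho of 0.67 (p = 0.0831, adjusted 0.111). Igha with Jchain gave r of 0.58 (exact permutation p = 0.134, adjusted 0.134) and rho of 0.45 (p = 0.268, adjusted 0.268).

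The relations rested on few libraries. Without SmoM2 libraries 1 and 3, which were farthest from the median of Igkc, r was 0.42 with Cd79a (adjusted exact permutation p = 0.506) and 0.74 with Jchain (adjusted 0.175), so neither call held. Without SmoM2 library 1 alone, r was 0.60 for Igkc with Cd79a, 0.68 for Igkc with Jchain, 0.77 for Ighm with Cd79a and 0.24 for Igha with Jchain, with no call. Without control library 4, Igha with Jchain had r of 0.96 (adjusted exact permutation p = 0.00278) and Ighm with Cd79a had r of 0.81 (adjusted 0.0256), both then past the threshold. Without the 2 libraries farthest from the median of Igha or Ighm, r was 0.18 for Igha with Jchain (without SmoM2 library 1 and control library 2) and 0.73 for Ighm with Cd79a (without control libraries 4 and 2). With group means removed, r was 0.78 for Igkc with Cd79a (adjusted exact permutation p = 0.0563), 0.84 for Igkc with Jchain (0.0473), 0.72 for Ighm with Cd79a (0.0585) and 0.59 for Igha with Jchain. Control library 4 stood out by high Igha, at 142.2 CPM, with low Jchain, at 11.9 CPM, and low Ighm, at 9.46 CPM.

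**Figure D5:**
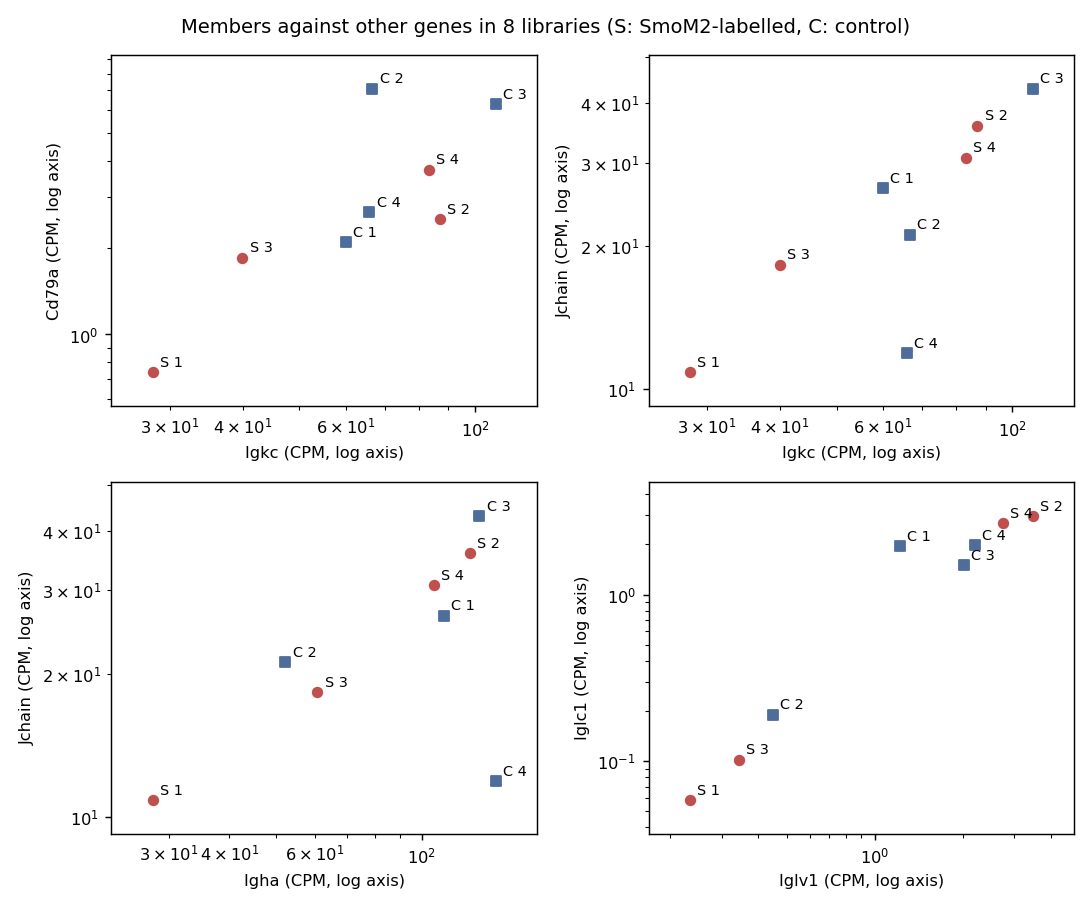
Level of Cd79a and Jchain against Igkc, Jchain against Igha and Iglc1 against Iglv1 in the 8 libraries, in CPM on log axes, with SmoM2-labelled libraries as circles (S) and control libraries as squares (C). SmoM2 library 1 is lowest on both axes of every panel, control library 4 lies low on Jchain in both panels that show it, and Iglv1 with Iglc1 falls into sets of 3 and 5 libraries.

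Receptors that bind antibody were measured on a separate list of 12 genes. Of the 10 tested, 6 had a positive and 4 a negative log2 fold change, with a median of 0.41, and edgeR called none. Fcgrt, the neonatal Fc receptor that protects IgG from breakdown, was by far the highest by CPM, at 162.4 to 215.5 CPM in SmoM2-labelled and 146.9 to 210.2 CPM in control libraries. Pigr, which carries IgA and IgM across epithelium, was at 0 to 0.492 CPM in SmoM2-labelled and 0.190 to 1.23 CPM in control libraries. The 4 negative log2 fold changes were −1.57 for Fcer2a, −1.43 for Pigr, −1.11 for Fcamr and −0.13 for Trim21. The activating receptors Fcgr1, Fcgr3 and Fcgr4 had log2 fold changes of 1.37, 1.21 and 1.37 and were highest in SmoM2 library 4, where a list of 10 myeloid genes summed to 1415 CPM against 403.0 to 734.6 CPM in the other SmoM2-labelled libraries and 474.4 to 645.8 CPM in the control libraries. The part of myeloid cells in these values was not tested.

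Genes of V(D)J recombination were measured as a separate list. Rag1, a subunit of the recombinase, had 712, 8, 17 and 4244 units in SmoM2 libraries 1 to 4 and 1978, 158, 8 and 12 units in control libraries 1 to 4. Dntt, the enzyme that adds bases at the joints, had 342, 12, 7 and 2088 units in SmoM2 libraries 1 to 4 and 1221, 90, 4 and 0 units in control libraries 1 to 4. The libraries high for both were those high for a list of 10 T cell genes, which summed to 53.2, 16.7, 14.3 and 200.7 CPM in SmoM2 libraries 1 to 4 and 135.9, 35.8, 23.9 and 17.2 CPM in control libraries 1 to 4. T cell receptor variable segments above 0 numbered 32, 17, 24 and 82 in SmoM2 libraries 1 to 4 and 61, 41, 26 and 28 in control libraries 1 to 4, of 118. SmoM2 library 4 and control library 1 were thus highest for T cell genes, T cell receptor segments, Rag1 and Dntt, whereas summed member CPM was highest in control library 3, at 497.9, next in SmoM2 library 4, at 380.0, and among the 3 lowest in control library 1, at 268.9. The surrogate light chain genes Igll1 and Vpreb2, which mark B cell precursors, were at 0 in all libraries, and Vpreb1 was at 0.265 to 0.400 CPM in SmoM2-labelled and 0.110 to 0.270 CPM in control libraries.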

How the data were processed

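The deposited table of estimated counts, made by the authors for each Ensembl gene and library of poly(A)-selected RNA, was used as deposited, since its values are whole numbers. Per the submitters' processing notes, the tools were FastQC, HISAT, StringTie and DESeq and the build was mm10; neither their versions nor their order is given. The most frequent value above 0 was 5 in every library, so a fragment was taken as 5 units, an assumption. The authors' own table gives, per the file headers, the mean signal of each group, its ratio and log2 fold change, and p-values. Its group means were matched to within a relative difference of 4.56e-09 by median-of-ratios scaling. No 2 libraries agreed within sampling noise (chi-square over degrees of freedom 21.0 to 95.9 for all pairs), so all 8 were kept, and the titles name 8 animals.

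CPM used TMM library sizes from edgeR 4.0.16 (R 4.3.3). Genes were tested with edgeR's quasi-likelihood method with robust dispersion, filterByExpr and group as the sole term, and Benjamini-Hochberg adjustment over all 20162 genes tested, with DESeq2 1.42.0 as an alternative. Both were tested on simulated data. Reference symbols matched 99.3% of identifiers. Variable exons were aligned with Biopython 1.88. Other alternatives were RLE factors, no filter, counts divided by 5, plain library totals, a pseudocount of 1 CPM, a threshold of 15 units and each library left out in turn. The members and the gene lists were chosen with earlier results of these data known. Named genes were all constant genes, the 6 highest sums in each of Ighv and Igkv and the 2 highest in Iglv, segments in at least 2 libraries of 1 group and none of the other with a sum of at least 100, and members called in the authors' table.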

Additional observations from a re-analysis of the deposited data

Results flagged for a closer look

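Single libraries far from the rest of their group were seen in 14 of 94 groups of 4 values looked at, by Dixon's ratio of gap to range. The cut-off of this ratio gives about 1 in 20 by chance only for independent, normally distributed values. Most flagged values were on the high side, and items overlapped, such as Cd8a and the T cell list that holds it. The count therefore cannot show an excess over chance. SmoM2 library 1 held 53 variable segments above 0 and an effective number of Ighv segments of 8.37, both the lowest of its group. In SmoM2 library 3, Igkv1-110 stood at 2.89 CPM. In SmoM2 library 4, Ighe stood at 1.24 CPM, Iglv3 at 1.17 CPM, Rag1 at 40.2 CPM and Dntt at 19.8 CPM. In control library 1, Cd8a stood at 23.1 CPM, Rag1 at 20.9 CPM, Dntt at 12.9 CPM and the summed T cell list at 135.9 CPM. In control library 3, Igkc stood at 108.6 CPM, Igkv10-96 at 7.05 CPM and Ighv1-82 at 1.51 CPM. The cause was not tested.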

How the results depend on the processing

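No member was called by edgeR with RLE factors, with no filter on low counts, with counts divided by 5 or without any single library, and 4 were called by DESeq2. At an unadjusted p under 0.05 there were 8 of 112 members in edgeR, against 3.75% of all genes tested, and 18 of 216 in DESeq2, against 4.11% of 30032. Members above 0 in 1 group alone numbered 11 to 24 for the SmoM2 group and 26 to 46 for the control group when a library was left out, an alternative added after seeing the data. The mean summed level ranged from 219.3 to 305.5 CPM for the SmoM2 group and from 305.2 to 381.6 CPM for the control group when a library was left out. Leaving out a library gave r from 0.60 to 0.93 for Igkc with Cd79a, 0.68 to 0.97 for Igkc with Jchain, 0.44 to 0.81 for Ighm with Cd79a and 0.24 to 0.96 for Igha with Jchain. The call of Igkc with Cd79a was lost without any of the SmoM2 libraries or control library 3 (leaving out SmoM2 library 2, 3 or 4 alone, r was 0.87, 0.81 and 0.81 in that order), and that of Igkc with Jchain without SmoM2 library 1, 2 or 4 or control library 2 or 3. Without the 2 libraries farthest from the median of Igkc, r was 0.42 with Cd79a and 0.74 with Jchain, and with group means removed, an alternative chosen after seeing the data, it was 0.78 with Cd79a, no longer past the threshold; the cause was not tested. Pseudocount and library totals changed no call of these 4 relations by Pearson's r, but with plain library totals Spearman's rho of Igkc with Jchain was 0.81 (adjusted exact permutation p = 0.0871) and no longer past the threshold. No paired analysis was possible because the column numbers are not tied to animals or batches. Segments at a few fragments limit what single values can show.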
